A study of Drosophila melanogaster with 6 samples.

Results

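The cytoplasmic ribosomal protein (RP) genes were examined in intestinal stem cells (ISCs) of the Drosophila midgut, with and without RNAi against NF-YA, a subunit of the CCAAT-binding factor NF-Y. They were taken as the genes of the deposited gene table whose symbol starts with RpL or RpS followed by a digit or P, and the mitochondrial mRp symbols were left out. This gave 86 of the 8470 genes in the table, and all 86 passed the filter on low counts. A copy with under 10% of the mean level of the most abundant copy of its family was set apart as a low-expressed paralog, which separated 5 genes from 81 canonical ones. By symbol, 32 of the canonical genes belong to the small subunit (RpS, 40S) and 49 to the large subunit (RpL, 60S), the stalk proteins RpLP0, RpLP1 and RpLP2 included. RpL24-like counts among the 49 by its symbol and level alone.

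RP genes encode the protein part of the ribosome, which is assembled in the nucleolus around the ribosomal RNAs. Most RP genes are among the most strongly transcribed genes of a growing cell. In flies many of them are known as Minute genes, whose loss of a single copy slows growth and development. In the midgut, ISCs divide and give rise to enteroblasts, which become enterocytes, and to enteroendocrine cells.

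All flies were females that carried Esg-Gal4-ts, UAS-2x YFP and Su(H)-GBE-Gal80, a driver that is active in ISCs while Gal80 keeps it off in enteroblasts. In the 3 control samples the driver line was combined with Oregon R, a wild-type strain without an RNAi construct, and in the 3 NF-YA RNAi samples with the line VDRC 106132, so that the groups differ in genetic background as well. The labels give 3 days at 18 °C, 3 days at 29 °C and 3 further days on holidic food, a chemically defined diet, whereas the methods of the study give 3 days on this diet at 29 °C. RNA of the cells sorted for YFP was sequenced, and the libraries are named here as in the labels, control 1, 2 and 3 and NF-YA RNAi 2, 4 and 5.

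Counts per library summed to between 77055721 and 122210243. NF-YA itself had 16.0 to 23.5 CPM in control and 3.57 to 4.91 CPM in NF-YA RNAi libraries (CPM is the count after TMM scaling to equal library sizes), a log2 fold change of -2.21 (quasi-likelihood test of edgeR, Benjamini-Hochberg adjusted p = 0.000192). Markers of midgut cell types differed between the groups. The summed level of 16 enterocyte markers ranged from 2053 to 5710 CPM in control and from 380.4 to 1551 CPM in NF-YA RNAi libraries. That of 10 enteroendocrine markers ranged from 1653 to 2089 and from 469 to 1089 CPM, and that of 6 matched progenitor markers from 2504 to 2911 and from 2154 to 2352 CPM. Of the enterocyte markers, 13 had a log2 fold change below 0 and 3 above 0. The 3 were Mal-A5 (3.43, edgeR adjusted p = 0.00114), nub (0.54, edgeR adjusted p = 0.106) and mex1 (0.46, edgeR adjusted p = 0.616). All 10 enteroendocrine and all 6 progenitor markers were below 0. Visceral muscle (10 genes, 10.7 to 48.0 against 8.29 to 13.5 CPM), neuron (5 genes, 51.4 to 63.1 against 30.3 to 45.7 CPM), hemocyte (5 genes, 7.11 to 14.5 against 4.72 to 7.45 CPM) and fat body markers (5 genes, 1.62 to 4.39 against 1.49 to 3.59 CPM) were low, as were 7 matched germline markers (1.56 to 2.05 against 3.57 to 8.91 CPM). He, Lsp2 and osk had 0 counts in all libraries. Among the hemocyte markers, Sr-CI rose (log2 fold change 1.58, edgeR adjusted p = 0.0460) while Ppn fell (-2.17, edgeR adjusted p = 0.0163). Of the germline sum, piwi made up 0.326 to 0.847 CPM in control and 2.37 to 6.75 CPM in NF-YA RNAi libraries. In these bulk samples, fewer cells of a type and less RNA per cell cannot be told apart. The methods of the study describe 3 independent samples per line that were handled in parallel. No source says whether the libraries came from separate crosses, so p-values measure the spread between these 6 samples.

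RP genes made up a large share of every library, and this share was smaller in NF-YA RNAi. They took 35.4%, 34.8% and 35.5% of the gene counts in control libraries 1, 2 and 3, and 33.2%, 32.9% and 33.1% in NF-YA RNAi libraries 2, 4 and 5. The groups did not overlap, and the NF-YA RNAi mean (33.1% ± 0.174, SD, n = 3) was 0.938 times the control mean (35.3% ± 0.357, SD, n = 3). An exact two-sided permutation test gave p = 0.1, the smallest value that 3 libraries against 3 allow. Leaving out any single library kept this ratio between 0.933 and 0.941. The part of enterocytes and of other cell types in this difference was not tested.

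**Figure D1:**
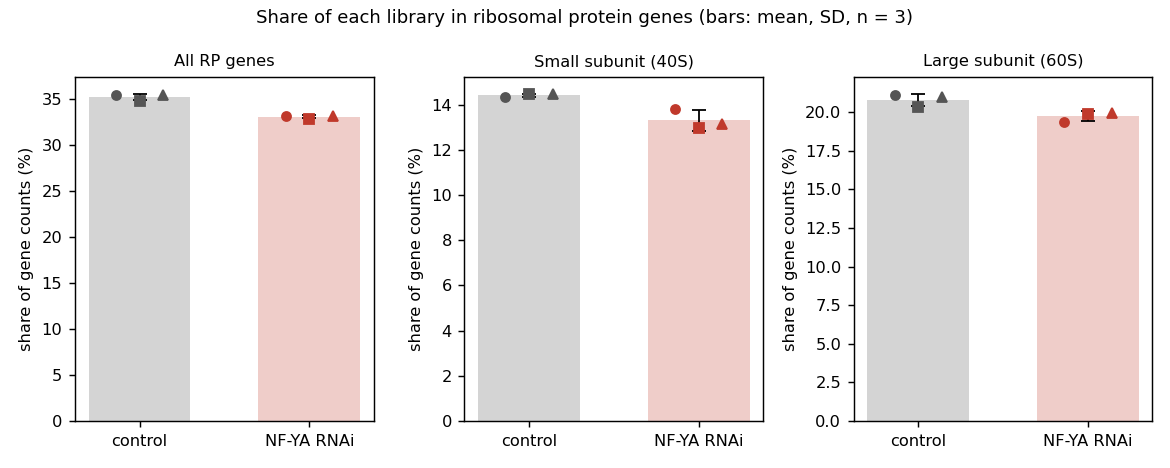
Share of gene counts (%, y axis) in all RP genes, in canonical 40S genes and in canonical 60S genes, for 3 control and 3 NF-YA RNAi libraries. Bars show the mean, error bars the SD, and points the libraries; the NF-YA RNAi libraries lie below the controls in each panel, at 32.9% to 33.2% against 34.8% to 35.5% for all RP genes.

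Both subunits contributed to the smaller share. The canonical 40S genes held 14.4% ± 0.0759 of the counts in control and 13.3% ± 0.460 in NF-YA RNAi (SD, n = 3 each), and the canonical 60S genes 20.8% ± 0.403 and 19.7% ± 0.328 (SD, n = 3 each), with no overlap in either case. The ratio of 40S to 60S counts was 0.679, 0.711 and 0.688 in control and 0.714, 0.650 and 0.660 in NF-YA RNAi libraries, which overlapped (exact two-sided permutation test, p = 0.5). NF-YA RNAi library 2 had the highest ratio of all 6 libraries and libraries 4 and 5 had the lowest.

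On the gene level, RP genes were lower in NF-YA RNAi by small amounts. Of the 86 genes, 77 had a log2 fold change below 0, against 51.6% of the 9082 genes tested. At an adjusted p under 0.05 (edgeR's quasi-likelihood test, adjusted over all genes tested), 17 RP genes fell (19.8%), against 8.03% of all genes tested, and 0 RP genes rose, against 6.24% of all genes tested. At an unadjusted p under 0.05, 42 were lower and 0 were higher, against 1446 lower and 1220 higher of the 9082 genes tested. DESeq2 called 26 RP genes lower and 0 higher, against 1040 lower and 832 higher of the 11070 genes in its fit. The median log2 fold change of the canonical genes was -0.16, beside -0.02 over all genes tested. Among the 31 genes that are not RP genes and had at least the lower quartile of the canonical RP levels (1759 CPM), the median was -0.08. Of these 31, 7 (22.6%) were called lower and 8 called higher. The NF-YA RNAi libraries were all below the controls for 41 RP genes, against 19.4% of all genes tested, and all above them for 1, against 16.6%. Counting both directions, 48.8% of RP genes and 36.0% of all genes tested had groups that were apart. Among the 31 abundant genes that are not RP genes this was 64.5%, with 11 lower and 9 higher. The shares of RP genes called lower, and apart in either direction, were thus no larger than those of these abundant genes.

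The number called depended on single libraries and on the scaling. It was 3 without control library 1, 9 without control library 2 or 3, 26 without NF-YA RNAi library 2, 1 without library 4 (RpS24) and 0 without library 5. Without library 5, 21 RP genes were lower at an unadjusted p under 0.05, and the matching share of all genes is not given here. The share of all genes tested that was called lower was between 3.38% and 7.92% in these fits (3.76% without control library 1). Scaling by library totals alone left 5 of the 86 RP genes called lower, against 5.99% of all genes tested. It moved the share of higher genes among all calls from 43.8% to 59.2%.

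**Figure D2:**
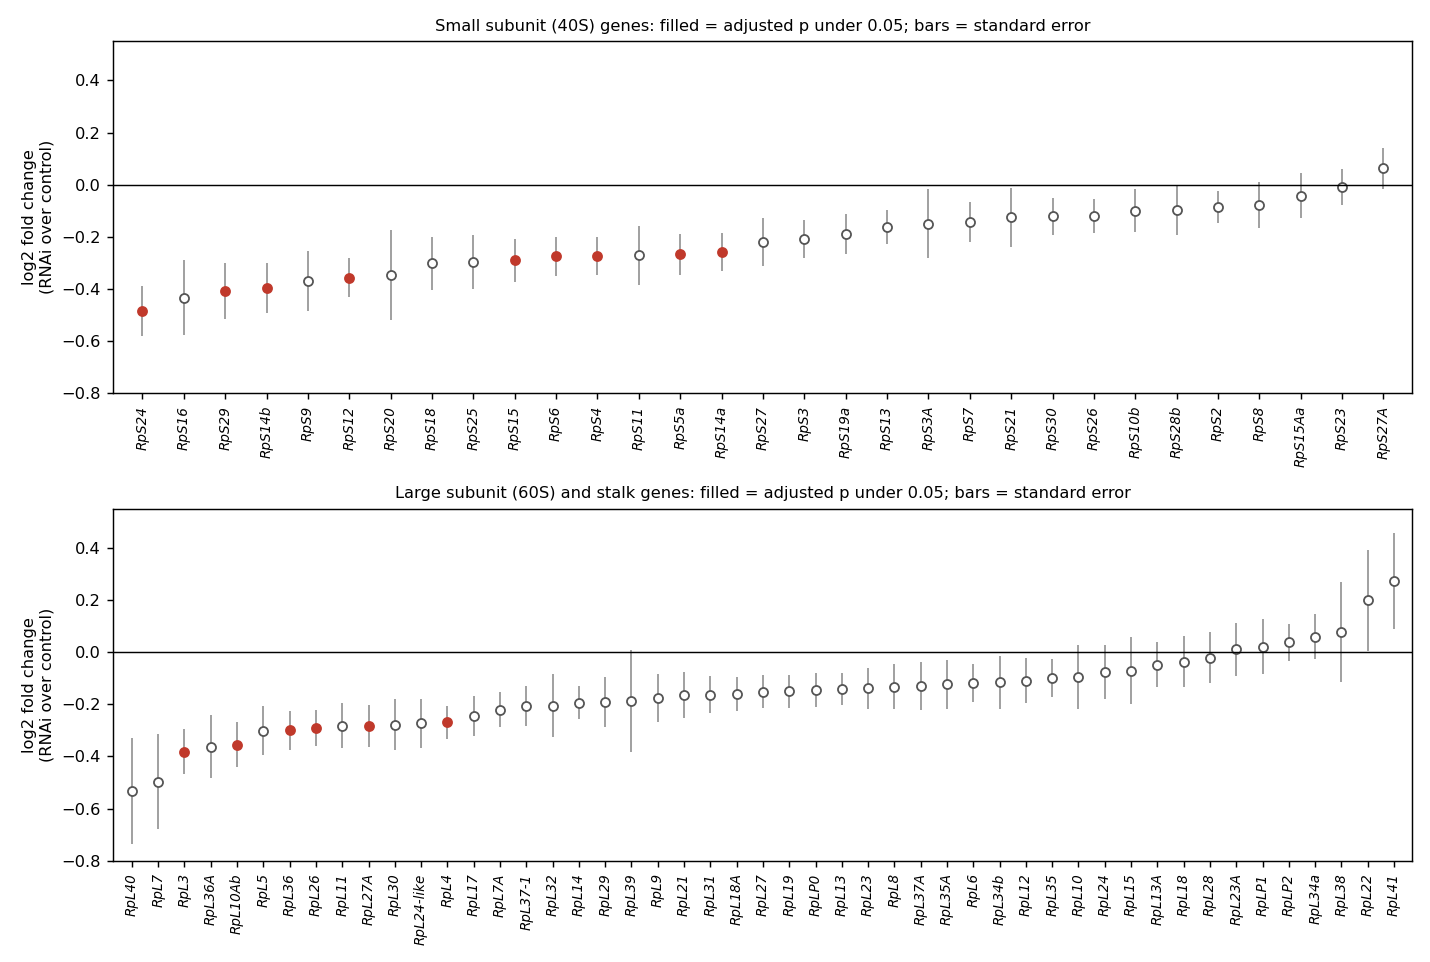
Log2 fold change of NF-YA RNAi over control (y axis) for 31 of the 32 canonical 40S genes and the 49 canonical 60S genes, ordered by value. Points are estimates of edgeR's fit and bars standard errors; the 15 filled points, genes past an adjusted p of 0.05, are all below 0, and the values run from -0.53 (RpL40) to 0.27 (RpL41).

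Small subunit genes held the larger number of calls. Of the 32 canonical 40S genes, 31 had a log2 fold change below 0, 10 (31.25%) were called lower and the median was -0.24. Of the 49 canonical 60S genes, 42 were below 0, 6 (12.2%) were called lower and the median was -0.15. The share called lower over all genes tested was 8.03%. The difference between the subunits was not tested.

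RpS24, a small subunit protein whose human counterpart is mutated in Diamond-Blackfan anaemia, had the smallest p. It lies on arm 2R at 22640526 to 22641419 (gene positions are from the BDGP6.54 annotation). It had 5115, 5222 and 5253 CPM in control libraries 1, 2 and 3, and 4279, 3264 and 3603 CPM in NF-YA RNAi libraries 2, 4 and 5. The controls lay close together and NF-YA RNAi library 4 was lowest. RpS24 fell by 28.5% (log2 fold change -0.48, standard error 0.09, edgeR adjusted p = 0.0111) and was still called in 5 of the 6 fits with a library left out.

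RpS12, which in flies is required for cells with too few ribosomal proteins to be eliminated by their neighbours, lies on arm 3L at 13023352 to 13024762. It had 4976, 4636 and 4975 CPM in control and 4142, 3624 and 3630 CPM in NF-YA RNAi libraries, and fell by 21.9% (log2 fold change -0.36, standard error 0.08, edgeR adjusted p = 0.0154). Here too NF-YA RNAi library 2 was closest to the controls. RpS12 was called in 3 of the 6 fits with a library left out.

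RpS14, a protein of the small subunit platform, is encoded by adjacent copies on the X chromosome, RpS14a at 7933742 to 7934677 and RpS14b at 7934898 to 7935792. RpS14b had 1571, 1596 and 1552 CPM in control and 1359, 1146 and 1079 CPM in NF-YA RNAi libraries, and fell by 24.1% (log2 fold change -0.40, standard error 0.09, edgeR adjusted p = 0.0242). RpS14a, at 4039 to 4421 CPM in control and 3347 to 3795 CPM in NF-YA RNAi libraries, fell by 16.3% (edgeR adjusted p = 0.0451). With a library left out, RpS14b was called in 2 of the 6 fits and RpS14a in 1. RpS14b took 27.1% ± 1.09 of the counts of the pair in control and 25.1% ± 1.07 in NF-YA RNAi (SD, n = 3 each), and these shares overlapped. The copies are nearly identical, so the split of reads between them is uncertain.

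RpS29, a small zinc-binding protein of the head of the 40S subunit (arm 3R, 9778042 to 9779528), was less abundant. It had 453, 556 and 486 CPM in control and 409, 374 and 342 CPM in NF-YA RNAi libraries, with control library 2 highest. It fell by 24.7% (log2 fold change -0.41, standard error 0.11, edgeR adjusted p = 0.0340) and was called in 2 of the 6 fits with a library left out.

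Other 40S genes that were called lower included RpS15, RpS6, RpS4 and RpS5a. RpS6, the substrate of S6 kinase downstream of TOR, had 6862, 7177 and 6820 CPM in control and 6339, 5421 and 5494 CPM in NF-YA RNAi libraries, and fell by 17.3% (log2 fold change -0.27, edgeR adjusted p = 0.0380). Values of RpS15, RpS4 and RpS5a in NF-YA RNAi libraries were between 3717 and 7043 CPM, and their log2 fold changes between -0.29 and -0.27. Each of these 4 genes was called in only 1 or 2 of the 6 fits with a library left out.

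**Figure D3:**
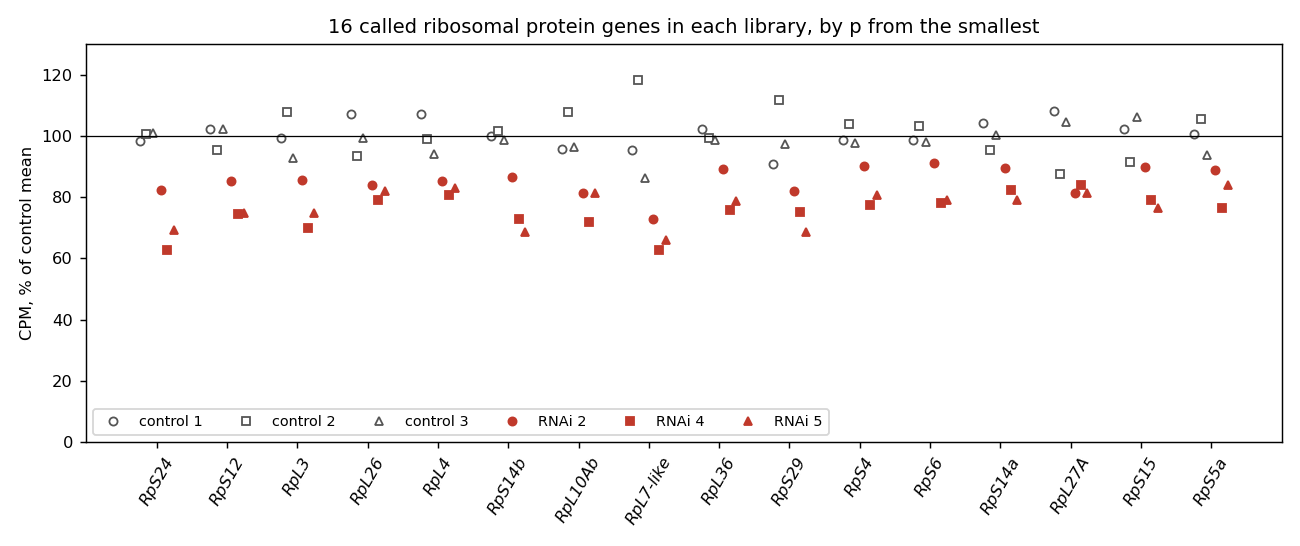
CPM of 16 of the 17 called RP genes in each library, as a percentage of the control mean (y axis), ordered by p. Open grey symbols are the 3 control libraries and filled red symbols the 3 NF-YA RNAi libraries; for each gene all red symbols lie below all grey ones, with RNAi library 2 (red circle) often the highest of the red ones.

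RpL3, a large protein that reaches the peptidyl transferase centre, had the smallest p among 60S genes (arm 3R, 11221894 to 11225173). It had 12750, 13851 and 11900 CPM in control and 10974, 8976 and 9603 CPM in NF-YA RNAi libraries. RpL3 fell by 23.2% (log2 fold change -0.38, standard error 0.09, edgeR adjusted p = 0.0192), and control library 2 was the highest of the 6 libraries. It was called in 2 of the 6 fits with a library left out.

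RpL4 and RpL26 line the path of the nascent chain, RpL4 within the exit tunnel and RpL26 near its exit. RpL26 (arm 3L, 18898875 to 18900408) had 7464, 6516 and 6926 CPM in control and 5858, 5509 and 5712 CPM in NF-YA RNAi libraries, and fell by 18.3% (log2 fold change -0.29, standard error 0.07, edgeR adjusted p = 0.0231). RpL4 (arm 3R, 27922821 to 27924888) had 12992, 12006 and 11410 CPM against 10336, 9801 and 10067 CPM, and fell by 17% (log2 fold change -0.27, standard error 0.06, edgeR adjusted p = 0.0235). For both genes the NF-YA RNAi libraries lay closer together than the controls. Each was called in 3 of the 6 fits with a library left out.

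RpL10Ab, the protein of the mobile L1 stalk near the site where transfer RNAs leave (arm 3L, 11822851 to 11824211), had 1703, 1918 and 1712 CPM in control and 1448, 1276 and 1444 CPM in NF-YA RNAi libraries. It fell by 21.8% (log2 fold change -0.36, standard error 0.09, edgeR adjusted p = 0.0253). RpL36 (X chromosome, 628338 to 629483) had 4458, 4329 and 4310 CPM against 3887, 3309 and 3441 CPM, and fell by 18.8% (log2 fold change -0.30, standard error 0.08, edgeR adjusted p = 0.0294). RpL27A, the most abundant canonical gene per length, had 9291 to 11467 CPM against 8630 to 8926 CPM, and fell by 17.7% (edgeR adjusted p = 0.0454). With a library left out, RpL10Ab was called in 3 of the 6 fits, and RpL36 and RpL27A in 1 each.

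RpLP0, RpLP1 and RpLP2 form the stalk that recruits elongation factors to the ribosome. RpLP0 had 6188, 5652 and 5830 CPM in control and 5429, 5093 and 5448 CPM in NF-YA RNAi libraries, a log2 fold change of -0.15 that did not pass the threshold (edgeR adjusted p = 0.171). RpLP1 (0.02, edgeR adjusted p = 0.928) and RpLP2 (0.04, edgeR adjusted p = 0.789) had estimates just above 0, and both were below 0 without control library 2 and without NF-YA RNAi library 4. The 3 genes together took 5.20%, 4.92% and 5.34% of the RP counts in control and 5.45%, 6.02% and 5.78% in NF-YA RNAi libraries, with no overlap. Whether the stalk genes differed from the other RP genes was not tested.

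RpL5 and RpL11 bind 5S ribosomal RNA and enter the large subunit as 1 particle, and in mammals the free particle binds the p53 regulator Mdm2. RpL5 had 487, 417 and 441 CPM in control and 340.2, 379.8 and 371 CPM in NF-YA RNAi libraries, with a log2 fold change of -0.30 (edgeR adjusted p = 0.0628). RpL11 had 4721, 5022 and 4572 CPM against 4404, 3554 and 3813 CPM, with a log2 fold change of -0.28 (edgeR adjusted p = 0.0599). For both genes the groups did not overlap but the threshold was missed. The level per length of RpL5 was 411 TPM and that of RpL11 was 7346 TPM.

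RpS27A and RpL40 are made as fusions to ubiquitin, so that each also supplies the cell with ubiquitin. RpS27A had 1046, 1121 and 1079 CPM in control and 1059, 1147 and 1184 CPM in NF-YA RNAi libraries (log2 fold change 0.06, edgeR adjusted p = 0.661). It overlaps Ip259 on the same strand over 1259 bases of gene span, and Ip259 had 19.3% of its counts. RpL40 had 1401, 2358 and 1613 CPM in control and 1568, 1005 and 1141 CPM in NF-YA RNAi libraries, which is the lowest log2 fold change of a canonical gene (-0.53, standard error 0.20) but not past the threshold (edgeR adjusted p = 0.116). Without control library 2 this value was -0.28.

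RpL7 came next, with 1716, 2638 and 1670 CPM in control and 1681, 1179 and 1410 CPM in NF-YA RNAi libraries (log2 fold change -0.50, edgeR adjusted p = 0.103, and -0.25 without control library 2). At the other end stood RpL41, RpL22 and RpL38. RpL41, a very short basic peptide, had 97.0, 73.0 and 109 CPM in control and 86.2, 136 and 115.1 CPM in NF-YA RNAi libraries (0.27, edgeR adjusted p = 0.378), and shares 520 bases of span with NaCP60E on the other strand, which had 16.0% of its counts. RpL22 had 2776, 2642 and 3168 CPM in control and 2206, 4258 and 3388 CPM in NF-YA RNAi libraries, so that libraries 2 and 4 of the same group were the lowest and the highest of all 6 (0.20, edgeR adjusted p = 0.554). Without NF-YA RNAi library 2 it was called higher (0.42), and without library 4 its estimate was -0.03. RpL38 had 27.1 to 43.1 CPM in control and 30.5 to 44.1 CPM in NF-YA RNAi libraries (0.08, edgeR adjusted p = 0.841).

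RpL40, RpL7 and RpL22 showed a pattern that crossed the groups. In control library 2, RpL40, RpL7, RpS20 and RpS16 were 0.65, 0.64, 0.62 and 0.41 log2 units above the mean of the other controls, and RpL38, RpL41 and RpL39 were at -0.62, -0.50 and -0.44. The same genes deviated in the same direction in NF-YA RNAi library 2, with RpL40 at 0.55, RpL7 at 0.38, RpS16 at 0.41 and RpS20 at 0.30, and with RpL38 at -0.49, RpL41 at -0.54 and RpL39 at -0.35. In NF-YA RNAi library 4 they went the other way, from -0.41 for RpL40 to 0.61 for RpL39. Over the 81 canonical genes, the deviations of control library 2 and NF-YA RNAi library 2 had a Pearson r of 0.75 (Spearman rho 0.76), those of control library 2 and NF-YA RNAi library 4 an r of -0.76 (rho -0.79), and those of control library 2 and NF-YA RNAi library 5 an r of -0.28 (rho -0.27). These are descriptions across genes of the same libraries, which are not independent replicates, and the deviations of NF-YA RNAi libraries 2 and 4 are taken against each other.

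The spread was widest in those libraries. Of the 81 genes, 9 were more than 0.2 log2 units above and 22 more than 0.2 below the other controls in control library 2, and 20 and 16 in NF-YA RNAi library 2, while NF-YA RNAi library 5 had 1 and 2. The library names give the number 2 to both libraries, but the sample titles number the NF-YA RNAi one 1, and no source ties either number to a shared day or batch. The deviations of control library 2 had an r of 0.05 with transcript length (rho -0.04).

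**Figure D4:**
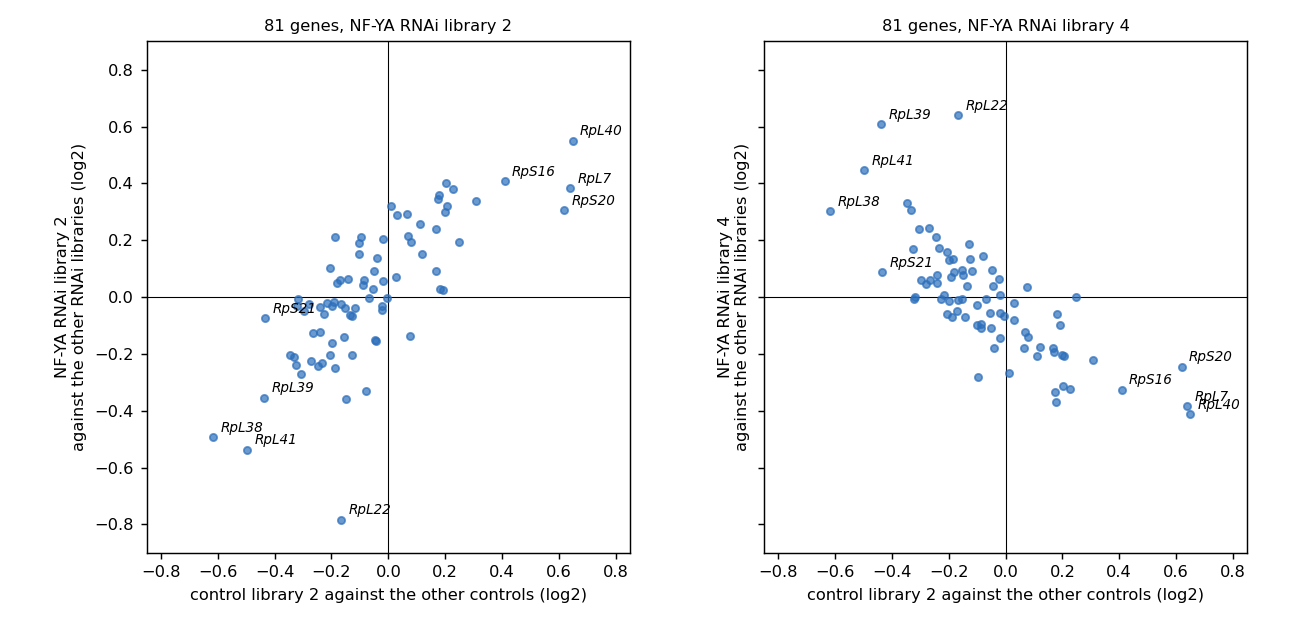
Deviation of each of the 81 canonical RP genes in control library 2 from the mean of the other controls (x axis, log2 CPM) against its deviation in NF-YA RNAi library 2 (left) or library 4 (right) from the mean of the other NF-YA RNAi libraries (y axis, log2 CPM). Each point is a gene; the points rise from RpL38 and RpL41 to RpL40 on the left (r = 0.75) and fall on the right (r = -0.76).

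Several families have more than 1 copy in the table. RpL34a and RpL24-like were kept as canonical, at 31.6% and 14.1% of the level of RpL34b and RpL24. RpL34a had 807, 699.8 and 820.4 CPM in control and 801, 811 and 813 CPM in NF-YA RNAi libraries (log2 fold change 0.06, edgeR adjusted p = 0.716), beside 2938, 2384 and 2504 against 2137, 2551 and 2531 CPM for RpL34b (-0.12, edgeR adjusted p = 0.507). The share of RpL34a in the pair was 23.0% ± 1.58 in control and 25.2% ± 1.76 in NF-YA RNAi (SD, n = 3 each), which overlapped.

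RpL24-like, RpL7-like and RpLP0-like have counterparts that are known in yeast as assembly factors, which hold the place of the mature protein in the precursor of the large subunit. RpL24-like had 766, 642 and 690.2 CPM in control and 591, 602 and 543 CPM in NF-YA RNAi libraries, with no overlap (log2 fold change -0.27, edgeR adjusted p = 0.0836). RpL7-like, a low-expressed paralog at 1.57% of the level of RpL7 (arm 2L, 12056326 to 12058251), had 30.8, 38.2 and 27.9 CPM in control and 23.6, 20.3 and 21.3 CPM in NF-YA RNAi libraries. It was the called RP gene with the lowest log2 fold change, and fell by 32.7% (-0.57, standard error 0.14, edgeR adjusted p = 0.0276). It was called in 2 of the 6 fits with a library left out, the one without NF-YA RNAi library 2 and the one without control library 3. RpL7-like shares 1904 bases of span with CG34164 on the same strand, which had 8.16% of its counts.

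RpLP0-like went the other way. It had 83.2, 85.5 and 83.4 CPM in control and 98.1, 91.6 and 95.2 CPM in NF-YA RNAi libraries, and was the only RP gene of which every NF-YA RNAi library exceeded every control. Its log2 fold change of 0.18 did not pass the threshold (edgeR adjusted p = 0.212). It shares 39 bases of span with Jra on the other strand, which had 227% of its counts. RpLP0-like made up 1.41% ± 0.0815 of the counts of RpLP0 and RpLP0-like together in control and 1.75% ± 0.0312 in NF-YA RNAi (SD, n = 3 each), with no overlap.

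The other low-expressed paralogs were not called. RpS15Ab, at 3.27% of the level of RpS15Aa, had 11.7, 17.5 and 18.2 CPM in control and 16.3, 17 and 13.4 CPM in NF-YA RNAi libraries (log2 fold change -0.02, edgeR adjusted p = 0.965), while RpS15Aa had 476 to 494 against 439 to 497 CPM (-0.04, edgeR adjusted p = 0.798). RpS19b and RpS5b, copies known to be expressed in the fly germline, were near the detection limit, where 3 counts correspond to 0.0245 to 0.0378 CPM. RpS19b had 1.08, 0.745 and 0.410 CPM in control and 0.469, 0.163 and 0.214 CPM in NF-YA RNAi libraries (edgeR adjusted p = 0.333), beside 2422 to 2801 and 2205 to 2297 CPM for RpS19a (-0.19, edgeR adjusted p = 0.138). RpS5b had 1.0, 0.704 and 0.669 CPM in control and 0.376, 0.605 and 0 CPM in NF-YA RNAi libraries (edgeR adjusted p = 0.555), beside 4556 to 5133 and 3717 to 4321 CPM for RpS5a, which fell. The germline markers had a summed level of 1.56 to 2.05 CPM in control and 3.57 to 8.91 CPM in NF-YA RNAi libraries, and their part in the levels of these copies was not tested. Most of the sum in NF-YA RNAi libraries came from piwi (2.37 to 6.75 CPM, log2 fold change 2.97, edgeR adjusted p = 0.00850). Of the 6 germline markers tested, 4 had a log2 fold change above 0 and 2 below 0. RpS10a, RpL37-2, RpL22-like, RpL10Aa, RpS28a and RpS28-like, which are outside the gene table, had 0 counts in all 6 libraries.

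**Figure D5:**
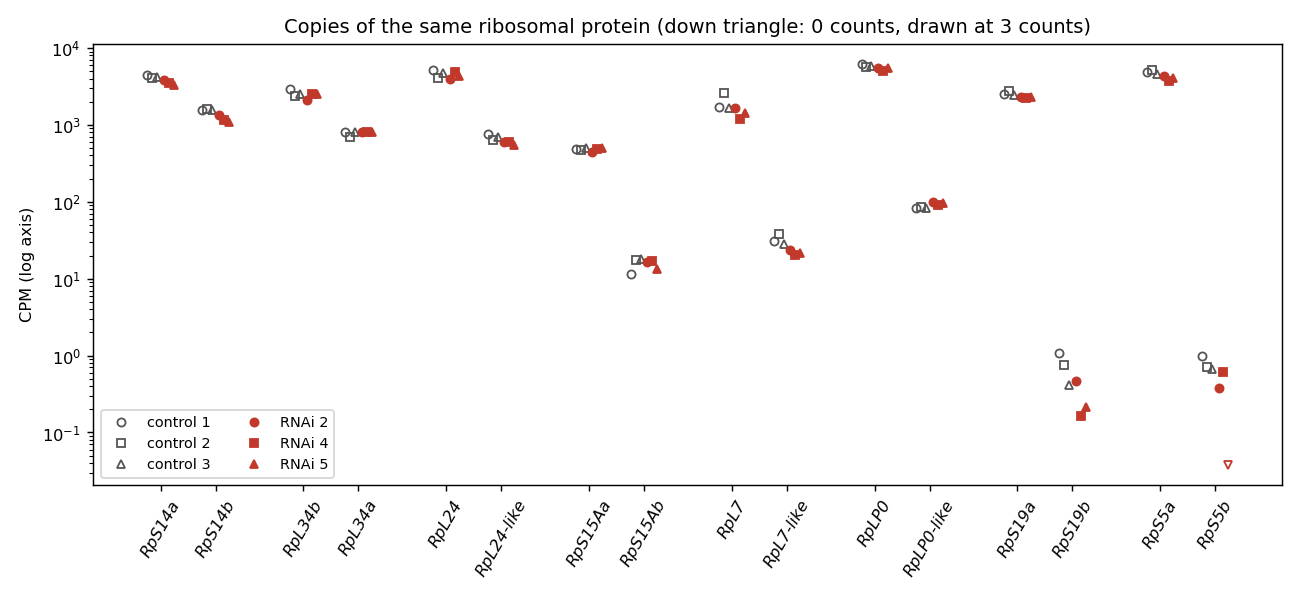
CPM (y axis, log scale) of 8 pairs of genes, matched by symbol, in 3 control (open grey) and 3 NF-YA RNAi libraries (filled red). The second copy of each pair runs from 1079 to 1596 CPM (RpS14b) down to 1.08 CPM or less (RpS19b, RpS5b), and the down triangle marks a library with 0 counts.

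Levels per length varied widely among RP genes. By mean TPM (the level per transcript length, as deposited) over the 6 libraries, the canonical genes ran from 165 TPM for RpL38 to 21787 TPM for RpL27A, a 132-fold range, with a median of 7026 TPM, and 50 of the 81 were within 2-fold of it. The 9 genes under 1000 TPM were RpL38, RpL15 (284), RpL39 (370.5), RpL5 (411), RpL10 (418), RpS3A (453), RpL41 (787), RpS15Aa (854) and RpL24-like (956). RpL39 and RpL41 have short main transcripts of 288 and 320 bases. RpL38 lies at 4515388 on 2R, RpL15 at 27267255 on 3L and RpS3A on chromosome 4. Across the 81 genes the log2 fold change had an r of 0.05 with TPM (rho 0.07) and of -0.08 with transcript length (rho -0.0025). Its r with the deviation of control library 2 from the other controls was -0.68 (rho -0.65), and that library enters both values.

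The share of a gene's counts outside its most abundant transcript, a measure chosen after the data were seen, was larger in NF-YA RNAi for many RP genes. Of 54 RP genes with at least 100 counts in each library and at least 0.5% of counts in other transcripts, 18 had a larger share in each of the NF-YA RNAi libraries than in any control, against 6.51% of 3843 such genes in all, and 3 a smaller share (RpL35, RpS14a and RpS26), against 5.07%. Among 902 genes of at least 100 CPM that are not RP genes, 72 (7.98%) had a larger share. With a library left out, 18 to 28 RP genes did, against 9.58% to 15% of all genes.

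RpL15, a 60S protein at the core of the subunit, had 14.8%, 13.8% and 17.5% of its counts outside transcript RpL15-RA in control and 23.1%, 25.5% and 26.9% in NF-YA RNAi libraries. RpS27, a zinc-binding 40S protein, had 1.45%, 1.17% and 1.66% of its counts outside RpS27-RB in control and 2.80%, 3.81% and 2.92% in NF-YA RNAi libraries. RpS27-RA, the other transcript, had 45.9, 33.4 and 49.2 CPM in control and 79.2, 85.9 and 77.6 CPM in NF-YA RNAi libraries, while RpS27-RB had 3125, 2834 and 2921 against 2754, 2169 and 2576 CPM. The leading minor transcript was longer than the main one in 17 of the 18 genes, and in 28 of 35 others for which a minor transcript of at least 1 CPM was listed. How Salmon divides reads among overlapping transcripts of a gene adds an error that these shares do not show.

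Transcripts of the same gene also differed in how they followed the libraries. RpL36-RA had 1133, 1687 and 1119 CPM in control and 1295, 668 and 798 CPM in NF-YA RNAi libraries, and RpL36-RE, the main transcript, had 3181, 2464 and 3036 against 2409, 2533 and 2502 CPM. RpL36-RA was thus highest in control library 2 and lowest in NF-YA RNAi library 4, as RpL40 was, and RpL36-RE was not. For RpS10b, RpS10b-RE had 151, 119 and 266 CPM in control and 39.9, 1266 and 428 CPM in NF-YA RNAi libraries, so that it was highest in library 4, above all controls in library 5 as well, and lowest of all in library 2, beside RpS10b-RB at 4333, 4008 and 4252 against 3663, 3169 and 3679 CPM.

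RP genes lie on all chromosomes, with 14 on X, 18 on 2L, 19 on 2R, 14 on 3L, 20 on 3R and 1 on chromosome 4. Within their spans, 28 RP genes hold 74 genes of small nucleolar RNAs on the same strand, which guide modification of ribosomal RNA. The small nucleolar RNA genes themselves had mean counts of at most 28.8.

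Other genes of the ribosome were compared with the RP genes. Rack1, a 40S protein that the naming rule leaves out, had 12494, 11970 and 12418 CPM in control and 11146, 9931 and 10312 CPM in NF-YA RNAi libraries, and fell (log2 fold change -0.23, edgeR adjusted p = 0.0344). sta, the fly RPSA, had 11081 to 11948 CPM against 10078 to 10368 CPM (-0.17, edgeR adjusted p = 0.0741). They and the ribosome-bound or assembly factors Nacalpha, bic, eIF6 and Sbds make 6 genes, of which 1 was called lower and 0 higher (Sbds was the least abundant, at 8.65 to 10.9 CPM). Of 7 elongation factors, eEF2, which moves the ribosome along the mRNA, fell (-0.39, edgeR adjusted p = 0.0107) and eEF1delta rose (0.57, edgeR adjusted p = 0.00700). Mitochondrial RP genes had a median of 0.33, with 12 of 73 called higher and 0 called lower. Beside the counts of these lists, 8.03% of all genes tested were called lower and 6.24% higher.

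Of 13 tested regulators of RP gene transcription or of the translation of RP mRNAs, 2 (15.4%) were called lower and 0 higher. This compares with 8.03% and 6.24% of all genes tested. The median log2 fold change of the 13 was -0.09. Myc, which drives genes of ribosome synthesis, had 117, 99.5 and 104 CPM in control and 74.8, 70.3 and 58.5 CPM in NF-YA RNAi libraries, and fell with no overlap (-0.66, edgeR adjusted p = 0.00758). larp, the fly relative of LARP1, which binds mRNAs with a 5′ terminal pyrimidine tract such as those of RP genes, had 466, 398 and 319 CPM against 287, 266 and 239 CPM, and fell (-0.58, edgeR adjusted p = 0.0242). The promoter factors Trf2 (-0.36, edgeR adjusted p = 0.102), M1BP (0.25, edgeR adjusted p = 0.329) and Dref (0.27, edgeR adjusted p = 0.135) did not pass the threshold, nor did Xrp1 (-0.18, edgeR adjusted p = 0.197), which acts in cells that lack an RP gene copy. mnt and Tor matched no gene symbol.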

How the data were processed

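mRNA of sorted ISCs was measured in 3 control and 3 NF-YA RNAi libraries. Per the methods of the study, the authors trimmed reads with Trim Galore, aligned them with STAR and obtained estimated counts per transcript with Salmon. The processing notes in the labels instead list FastQC 0.11.2, Trimmomatic 0.33, TopHat2 2.1.0, HTSeq 2.7.6 and limma 3.28.8. The estimated counts were deposited without normalization, next to TPM values that the authors' Salmon runs scaled for length and depth. The deposited gene table holds signal values, gene counts divided by the authors' normalization factors, and the authors' DESeq2 comparison (fold changes and p-values), which was not used. The strand setting is not given in the sources used here.

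Estimates of 34989 transcripts were summed to 17609 genes of the BDGP6.54 annotation and rounded. Of 44 transcripts in none of its genes, 14 were given to genes whose deposited values they complete (1 of them to RpL32), a step chosen after the data were seen. After filterByExpr and TMM scaling, the quasi-likelihood test of edgeR (version 4.0.16, run in R 4.3.3) was applied to 9082 genes, with Benjamini-Hochberg adjustment over them and calls at an adjusted p of 0.05. Totals were 77055721 to 122210243 counts. Alternatives used DESeq2 1.42.0, limma 3.58.1, other scalings and filters, a replicate block, and left-out libraries. Named genes were all called RP genes (the 10 of smallest p in full), the 3 lowest and 3 highest canonical changes, stalk, 5S, ubiquitin-fusion and copy genes, RpS6, RpS12, RpL22, extremes of TPM, sta and Rack1; those of the library and transcript patterns were chosen after their values were seen. Members and lists were chosen with earlier results of these data known. In simulated counts, 60.7% of genes changed by a log2 of 1 and 75.2% of those changed by 2 were recovered. The values of 1 called RP gene, which stays in the counts, are not reported here. Sequences of promoters and proteins were not analysed here. SciPy 1.17.1 and pandas 2.3.3 in Python 3.11.15 served for tables, and matplotlib 3.10.9 for plots.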

Additional observations from a re-analysis of the deposited data

How the results depend on the processing

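The median log2 fold change of the canonical RP genes stayed below 0 in all alternatives, from -0.21 (without control library 2) to -0.08 (scaling by library totals), and the RP share of counts was lower in NF-YA RNAi in all that were run (0.936 times the control mean with the enterocyte marker counts taken out of the totals). The number of RP genes called lower, of 86, was 17 in the main fit, where 8.03% of all genes were called lower. It was 5 with library totals (5.99% of all genes), 13 with RLE factors (7.86%) and 12 with TMM factors computed without RP genes (7.71%). DESeq2 called 26 lower (9.39% of all genes), and limma on the deposited gene values 8 (8.70%). In the fits without single libraries it was between 0 and 26 (3.38% to 7.92% of all genes). There the number called higher was 0 to 1 (RpL22), and that of low-expressed paralogs called 0 to 1. With library totals 0 low-expressed paralogs were called. Library totals moved the median of all genes from -0.02 to 0.07.

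The titles number control and NF-YA RNAi libraries 1 and 2 alike. With these as a replicate block, 0 RP genes and 0 low-expressed paralogs were called, and 788 genes in all. At an unadjusted p under 0.05, 9 RP genes were lower in this fit. The remaining library of each group was alone in its block, so it added nothing to the estimated group difference. The fit thus compared fewer libraries than the main fit, and its lack of RP calls cannot be read as a result for all libraries. Deviations of same-numbered libraries correlated at 0.070 and -0.065 over all genes tested, so the numbers were not taken as pairs.

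Estimates near 0 changed sign. Library totals gave 0.015 for RpL24, 0.046 for RpS15Aa and 0.063 for RpS15Ab, limma gave 0.015 and the paired fit with the replicate block 0.22 for RpS15Ab. With a library left out, RpL22 lay between -0.034 (NF-YA RNAi library 4 left out) and 0.42, RpL34a from -0.010 (without control library 2) to 0.10, RpL38 from -0.10 (without control library 2) to 0.22, RpLP1 from -0.081 (without control library 2) to 0.10, RpLP2 from -0.0097 (without NF-YA RNAi library 4) to 0.089, RpS15Aa from -0.065 to 0.0065 (without NF-YA RNAi library 2), and RpS15Ab from -0.19 to 0.097 (without control library 3). The cause of these changes was not tested. Giving no unannotated transcript to a gene left 17 calls.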
